A study of Mus musculus with 7 samples.

Results

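Titin and desmin, the products of Ttn and Des, were followed through the 7 soleus samples of the series. The 2 genes were taken by gene symbol from the platform annotation of the array and are 2 of the 203 genes it names, with 1 spot each. All samples were soleus, a hindlimb muscle rich in slow fibres, from wild-type mice of the strain 129/SV kept as cage controls, so there was 1 group and no contrast between conditions. The labels give no age, and the sample titles carry the code C15 in 6 samples and C16 in replicate 5, with no meaning given. The sources used here do not say whether each sample came from a different animal, so the spread between samples may be partly technical. Every p-value below comes from re-pairing the 7 samples and treats each as a separate one. It therefore bears on these samples and not on a spread between animals.

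Titin is a giant elastic protein that runs from the Z-disc to the M-band of the sarcomere, centres the myosin filament and gives resting muscle much of its passive stiffness. Desmin is the main intermediate filament protein of muscle, and it ties neighbouring myofibrils to each other at the Z-discs and to the fibre membrane at costameres. Myosin heavy chains form the motor and backbone of the thick filament that titin spans. Their summed signal was used here as the measure of thick filament transcript, with Myh7 as the slow chain and Myh2, Myh1 and Myh4 as the fast chains IIa, IIx and IIb.

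The genomic sequence just before each gene's start is shown to place the 2 genes, since muscle genes are often bound there by E-box and MEF2 factors. The windows are RefSeq sequence of GRCm38.p6 and cover bases 250 to 11 before the annotated start, on the minus strand at chr2:76982558-76982797 for Ttn and on the plus strand at chr1:75360042-75360281 for Des. Capitals mark every match to an E-box (CANNTG), a MEF2 box, a CArG box, TATAA or a GC box (GGGCGG) on either strand.
Ttn: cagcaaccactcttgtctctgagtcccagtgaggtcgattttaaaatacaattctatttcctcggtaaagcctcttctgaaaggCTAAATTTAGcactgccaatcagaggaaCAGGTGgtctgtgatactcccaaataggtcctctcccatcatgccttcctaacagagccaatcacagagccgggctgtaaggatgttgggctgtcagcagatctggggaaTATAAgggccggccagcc
Des: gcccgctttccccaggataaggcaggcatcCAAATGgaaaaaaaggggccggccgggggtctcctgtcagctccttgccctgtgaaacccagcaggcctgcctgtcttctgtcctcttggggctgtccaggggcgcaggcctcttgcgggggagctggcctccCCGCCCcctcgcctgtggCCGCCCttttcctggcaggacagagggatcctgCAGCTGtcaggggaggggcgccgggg
The Ttn window held 1 MEF2 box, 1 E-box and 1 TATAA, and the Des window held 2 E-boxes and 2 GC boxes. None of these matches overlapped, and neither window held a CArG box. A MEF2 box was found in 2.83% of all 32851 RefSeq windows of the same length, TATAA in 22.4%, a GC box in 31.3%, a CArG box in 1.44% and an E-box in 65.0%. At least 2 E-boxes, as in the Des window, were found in 30.3% of the windows, and at least 2 GC boxes in 15.5%. The Des window was also richer in G and C, at 67.9% against 49.2% for Ttn and a median of 52.1% over all windows. A match is a description of the letters only, and the array measured transcripts, not binding at these windows.

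Signals are given in percent of the array sum, which adds up all spots of 1 array except the 28S ribosomal RNA spot and spot 1M, which carries no gene name here. As deposited, this sum lay between 99.9 and 100.02 in all 7 samples. The lower limit of each array was taken as its 10th percentile, called the floor, which ranged from 0.02% to 0.13%, and 44 of the 203 genes exceeded 2 times it on all arrays. Both Ttn and Des were among them, at 16.8 to 136 times the floor for Ttn and at 11.2 to 102 times for Des. The muscle fibre markers on the array, 7 of 9 listed, were all above the floor. Of these, 6 are Ttn, Des and the heavy chains themselves, so only myoglobin (Mb), the oxygen-binding protein of muscle, is a separate check, and its signal ranged from 6.72% to 9.79%. Here, above the floor means above 2 times the floor on all 7 arrays, and every other gene is called near the floor. Of the markers of other cells, 1 of 5 endothelial genes on the array (Cdh5) and 1 of 2 adipocyte genes (Fabp4) lay above it. None of the 3 satellite cell genes, the 3 fibroblast and matrix genes or the 2 immune genes did. Some of these exceeded 2 times the floor on part of the arrays, such as Pecam1 on 6, Kdr on 5 and Tnc on 4. Of the smooth muscle list, a tissue that also makes desmin, only Pdgfrb was on the array, and it exceeded 2 times the floor on 3 arrays. No nerve marker was on the array.

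The titin signal had a lowest value of 1.86% in replicate 2, a median of 2.42% in replicate 7 and a highest value of 3.30% in replicate 6, and averaged 2.46% ± 0.481 (SD, n = 7). The highest sample was 1.77 times the lowest. The other values were 2.09% in replicate 3, 2.18% in replicate 1, 2.67% in replicate 4 and 2.71% in replicate 5, so that replicate 6 alone exceeded 3%. Its gap to the next sample was 0.344 of the whole range on the log2 scale, which is not far enough to set it apart by Dixon's criterion.

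The desmin signal varied over a wider range, from 1.40% in replicate 2 through a median of 2.03% in replicate 5 to 3.0% in replicate 4, a ratio of 2.14. It averaged 2.10% ± 0.605 (SD, n = 7). Replicate 1 lay beside the lowest sample at 1.46%, followed by replicate 7 at 1.78%, while replicates 6 and 3 lay at 2.44% and 2.61%. On the log2 scale the SD was 0.42 for Des and 0.28 for Ttn, against a median of 0.34 over the 44 genes above the floor. Among those genes, 13 varied more than Des and 33 varied more than Ttn. Whether the 2 spreads differ was not tested. The primers and probes of the genes differ, so these percentages do not say which transcript was more abundant.

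**Figure D1:**
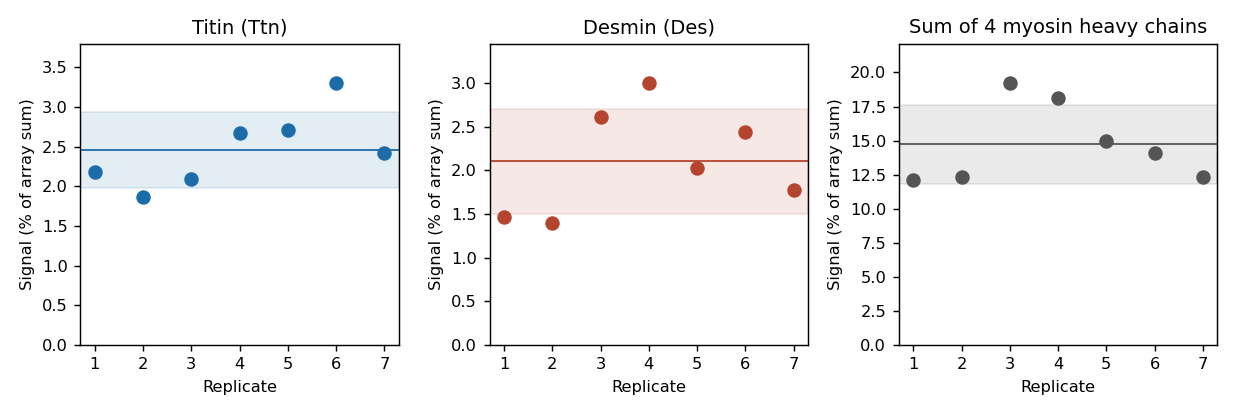
Signal of titin (Ttn), desmin (Des) and the sum of Myh7, Myh2, Myh1 and Myh4 in each of the 7 replicates, as a percent of the array sum; the line is the mean and the band 1 SD to each side. Replicates 3 and 4 hold the highest desmin and heavy chain signals, while titin is highest in replicate 6.

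The ratio of titin to desmin signal within an array does not depend on the array sum. It was nearly the same in 5 of the 7 samples and lower in replicates 3 and 4. In the 5 samples it was 1.33 in replicates 2 and 5, 1.35 in replicate 6, 1.36 in replicate 7 and 1.49 in replicate 1, with a mean of 1.37 ± 0.0679 (SD, n = 5) and a coefficient of variation of 4.94%. In replicate 3 it was 0.801 and in replicate 4 it was 0.890, below all of the others. Over all 7 samples the mean was 1.22 ± 0.265 (SD, n = 7) and the coefficient of variation 21.7%.

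On the scale of the array sum, the split lay in the desmin signal and was not seen in the titin signal. The Des signal of replicates 3 and 4, at 2.61% and 3.0%, lay above all of the other 5 samples, which ranged from 1.40% to 2.44%. The Ttn signal of the same replicates, at 2.09% and 2.67%, lay inside the range of the other 5, from 1.86% to 3.30%. Set against the heavy chain signal it was the other way. Titin was 10.9% and 14.8% of that signal in replicates 3 and 4, below the 15.1% to 23.4% of the other 5. Desmin was 13.6% and 16.6% of it there, inside their range of 11.4% to 17.3%. The 5 samples with a steady ratio still differed in the level of each gene, with a coefficient of variation of 22.0% for Ttn and 23.5% for Des, so there the genes were high or low together. Replicates 3 and 4 were singled out after their values were seen, so no test was made of this difference.

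Other signals also stood apart in replicates 3 and 4. The 28S ribosomal RNA spot was at 3.88% and 5.35% there and between 12.6% and 21.6% in the other 5. Cdh5, the cadherin of endothelial junctions, was at 0.11% and 0.12% there and between 0.19% and 0.30% in the others. The summed signal of the 5 endothelial markers was at 0.45% and 0.47% against 0.54% to 1.06%. Of these markers only Cdh5 set both replicates apart by itself. Pecam1 was at 0.12% in replicates 2 and 4 alike. In replicate 5, Flt1 equalled replicate 4 at 0.06%, and Kdr (0.10%) and Tek (0.04%) were below their 0.12% and 0.05% in replicate 4. The summed signal of the heavy chains was at 19.21% and 18.09% against 12.1% to 14.97%. The part of RNA composition, endothelial content or the array itself in the lower ratio was not tested. These 2 arrays shared 42 identical values of 223, and replicates 2 and 6 shared 64, while the remaining pairs of arrays shared 0 to 23. Low signals here carry only 2 decimals in percent, so arrays with like levels can share values by rounding. Replicates 2 and 6 had the same floor (0.06%) and array median (0.10%), and replicates 3 and 4 had medians of 0.07% and 0.06%. The part of rounding in these counts was not tested. Whether such pairs share an extraction or membrane is not stated in the labels, and all arrays were kept as separate samples.

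**Figure D2:**
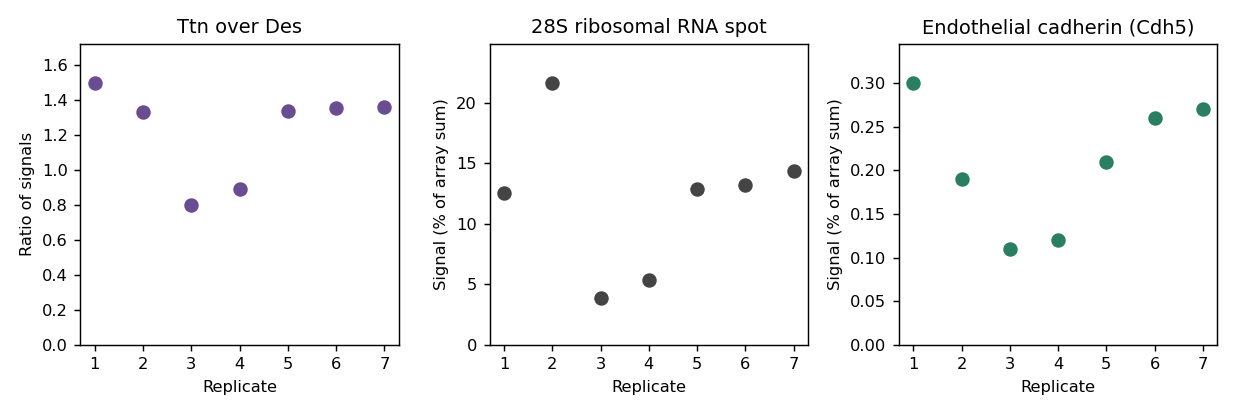
Ratio of titin to desmin signal, signal of the 28S ribosomal RNA spot and signal of endothelial cadherin (Cdh5) in each of the 7 replicates, the last 2 as a percent of the array sum. Replicates 3 and 4 are the lowest in all 3 panels, with ratios of 0.801 and 0.890 against 1.33 to 1.49 in the others.

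The summed heavy chain signal ranged from 12.1% in replicate 1 through a median of 14.09% in replicate 6 to 19.21% in replicate 3, and averaged 14.7% ± 2.90 (SD, n = 7). Myh7 made up 55.3% to 65.8% of it. The question was whether the scaffold transcripts followed the thick filament transcripts from sample to sample. Each relation was computed on log2 values and tested two-sided by exact permutation, using each of the 5040 ways to pair the 7 samples. The same test was run on every feature of the array against the same measure, and p-values were adjusted by Benjamini-Hochberg over all of them.

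Desmin was high where the heavy chains were high, but the relation did not pass the adjusted threshold. Pearson's r was 0.883 (n = 7, exact permutation p = 0.0123), with an adjusted exact p of 0.184 over 200 features. By rank the value was rho = 0.893 (exact permutation p = 0.0123 and, adjusted, 0.0882). Leaving out replicates 3 and 4, whose heavy chain signal lay farthest from the median, gave r = 0.803. It ranged from 0.837 to 0.940 when each replicate was left out in turn. The fitted slope was 1.36 log2 units of Des per log2 unit of heavy chain signal, and between 1.21 and 1.71 with each replicate left out. Of the 200 features, 0 passed at an adjusted p under 0.05 by this test (0% called), 0 passed by Spearman's rho, and 43 (21.5%) had an unadjusted p under 0.05.

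For titin the relation with the heavy chains did not pass either. Pearson's r was 0.172 (n = 7, exact permutation p = 0.699), with an adjusted exact p of 0.728. By rank the value was rho = 0.250 (exact permutation p = 0.595 and, adjusted, 0.629). Without replicates 3 and 4 r was 0.750. Leaving out replicate 3 alone, which had the highest heavy chain signal and a titin signal below the mean, raised r to 0.555, while leaving out replicate 4 alone gave 0.0686. It was -0.0825 without replicate 2. With 7 samples a p this large does not show that titin and heavy chain signals were unrelated.

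**Figure D3:**
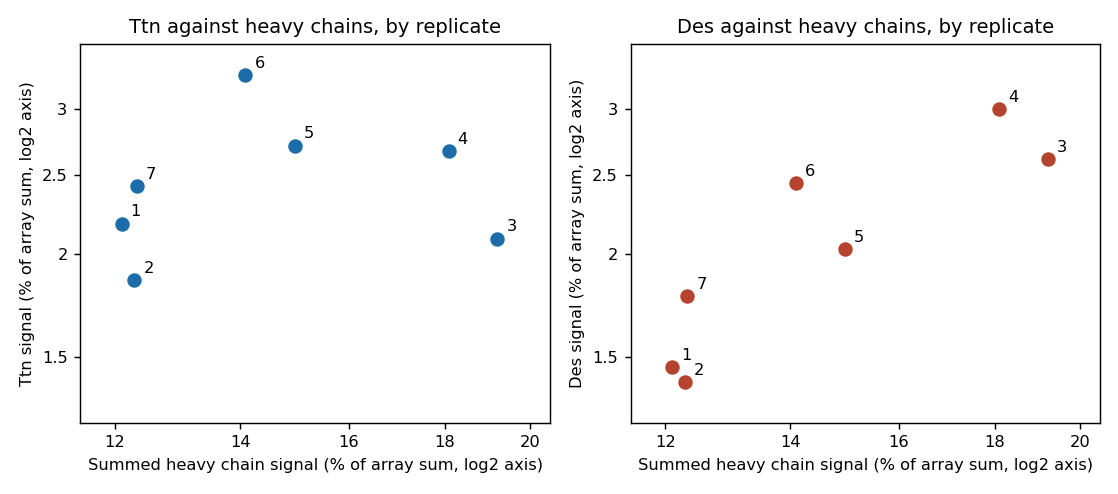
Titin (left) and desmin (right) signal against the summed heavy chain signal, all as a percent of the array sum on log2 axes, with 1 point for each replicate and its number beside it. Desmin is highest in replicates 3 and 4, which have the most heavy chain signal, while titin in both is below its values in replicates 5 and 6.

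Most genes of the array went against the heavy chain signal, which sets the background for these values. All signals are shares of 1 sum that includes the heavy chains, so more heavy chain signal can by itself mean less of the others. Of the 203 genes, 159 lay near the floor. The part of either in these coefficients was not tested. The median r over the 200 features was -0.673, and it was -0.604 over the 41 features left when only genes above the floor were kept. Only 2 features had a higher r than Des, the glycolytic enzyme Gapdh at 0.912 and the cytochrome oxidase subunit Cox6a2 at 0.891, named here after their values were seen. Ttn was exceeded by 12. The array medians were 0.06% to 0.07% in replicates 3, 4 and 5, which had the highest heavy chain signal, and 0.10% to 0.20% in the others. Adjusted over the 41 features above the floor, Des had an exact permutation p of 0.0721 and Ttn of 0.796, and 0 of the 41 passed (0% called).

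**Figure D4:**
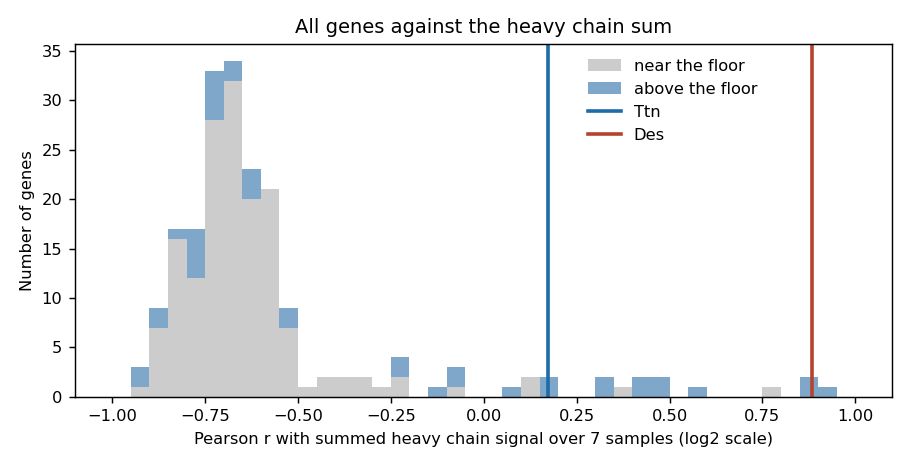
Number of genes by Pearson's r with the summed heavy chain signal over the 7 samples, on the log2 scale, stacked by whether the gene lay near or above the floor. Des (r = 0.883) lies at the upper end and Ttn (r = 0.172) between it and the bulk of the genes, whose median was -0.673 with the ratio of the 2 genes counted as a feature.

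The coefficients of desmin with the single heavy chains were unequal, and none passed the adjusted threshold. The r of Des was 0.898 with Myh2 (exact permutation p = 0.00456), 0.897 with Myh1 (exact permutation p = 0.00417) and 0.788 with Myh7 (exact permutation p = 0.0359), each with an adjusted p of 0.315 over 203 features. It was 0.0432 with Myh4 (exact permutation p = 0.939, adjusted p = 0.949). By rank, rho was 0.964, 0.893 and 0.786 with Myh2, Myh1 and Myh7 and -0.107 with Myh4 (exact permutation p = 0.00278, 0.0123, 0.0480 and 0.840; adjusted p = 0.266 for the first 3 and 0.870 for Myh4). Without the 2 farthest samples of each chain, r was 0.829, 0.768, 0.587 and -0.845, so the relation with Myh4 changed sign. Whether these values differ from each other was not tested. No feature passed against Des at an adjusted p under 0.05 by this test or by Spearman's rho, and 10 of 203 (4.93%) had an unadjusted p under 0.05.

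The r of Ttn was 0.532 with Myh1, 0.499 with Myh4, 0.224 with Myh2 and 0.0383 with Myh7 (exact permutation p = 0.215, 0.262, 0.616 and 0.935; adjusted p = 0.933 for the first 3 and 0.974 for Myh7). Spearman's rho was 0.571, 0.536, 0.429 and 0.107 (exact permutation p = 0.200, 0.236, 0.354 and 0.840; adjusted p = 0.843 for the first 3 and 0.942 for Myh7). Without the 2 farthest samples of each chain, r was 0.258, 0.111, 0.889 and 0.494. No feature passed against Ttn by either measure, and 1 of 203 (0.493%) had an unadjusted p under 0.05.

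Set against heavy chain signal, titin and desmin gave different spreads. Desmin signal was 11.4% to 17.3% of the heavy chain signal, lowest in replicate 2 and highest in replicate 6, and its coefficient of variation of 15.5% was below the 28.7% of the Des signal itself. Titin signal was 10.9% to 23.4% of it, lowest in replicate 3 and highest in replicate 6, with a coefficient of variation of 23.4% against 19.5% for the Ttn signal itself. Dividing by the heavy chains thus gave a smaller spread for desmin and a larger one for titin over the 7 samples. For titin this turned without replicates 3 and 4, where the coefficient of variation was 16.03% per heavy chain signal against 22.0% for the Ttn signal itself, and for desmin it was 16.9% against 23.5%. Replicate 6 had the most of both per heavy chain signal.

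The ratio of titin to desmin was lowest in the 2 samples with the most heavy chain signal. Because the ratio falls into 2 separate clusters, replicates 3 and 4 and the other 5, no coefficient over all 7 samples is given for it. The test of this relation, which is also that of the difference between the slopes of Ttn and Des on heavy chain signal, did not pass after adjustment (exact permutation p = 0.00357, adjusted p = 0.184 over 200 features), and its size rests on replicates 3 and 4. Within the other 5, the ratio ran from 1.33 to 1.49 while heavy chain signal ran from 12.1% to 14.97%, with r = -0.476 as a description. Against the ratio, 1 of 202 features passed the adjusted threshold (0.495% called). It was Cdh5, which stood in the same order over the 7 samples as the ratio, from replicate 1 with the highest value to replicate 3 with the lowest. Its exact permutation p of 0.000198 (adjusted p = 0.0401) is the smallest that 7 samples allow and needs this full match of order. The match rests on small steps, such as 0.27% and 0.26% in replicates 7 and 6 and 0.12% and 0.11% in replicates 4 and 3. The Cdh5 signal came down to 2.2 times the floor, close to the limit of 2 times. When only genes above the floor were tested, 6 of 43 features passed (14% called), among them the heavy chain sum and Myh7. These are not separate features, since Myh7 made up most of the sum, and both fell as the ratio rose. The others were Cdh5, Vldlr, Aldoc and Acadm, which rose with the ratio. The relation of the ratio with the heavy chains thus passed in that scan. Adjusted over the 41 features above the floor in the scan against the heavy chain sum, it did not (adjusted exact permutation p = 0.0691).

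Titin and desmin themselves gave r = 0.567 over the 7 samples (exact permutation p = 0.182, adjusted p = 0.315) and rho = 0.464 (exact permutation p = 0.302, adjusted p = 0.368). Leaving out replicates 2 and 4, whose Des signal lay farthest from the median, gave r = 0.320. Leaving out replicates 3 and 4, where the ratio was low, gave r = 0.979, a pair chosen after that ratio was seen. The value ranged from 0.346 to 0.801 with each replicate left out in turn. The relation did not pass, and it depended on the scaling of the arrays. With each array set to an equal median, a shift of -0.68 to 1.06 log2 units over the arrays, r was 0.956 (adjusted exact permutation p = 0.0269). With quantile normalization it was 0.0977 (adjusted exact permutation p = 0.995).

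The relations with the heavy chains moved with the scaling as well. With equal medians r was 0.980 for Des (adjusted exact permutation p = 0.0159) and 0.921 for Ttn (adjusted exact permutation p = 0.0432). In that setting 35 of the 200 features passed against the heavy chain sum. Equal medians move all genes of an array by 1 amount, which can by itself raise r between genes that lie above the floor. Its part in these values was not tested. With quantile normalization r was 0.666 for Des (adjusted exact permutation p = 0.709) and -0.352 for Ttn (adjusted exact permutation p = 0.845). Desmin thus kept a positive r in every setting tried, and titin did not.

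**Figure D5:**
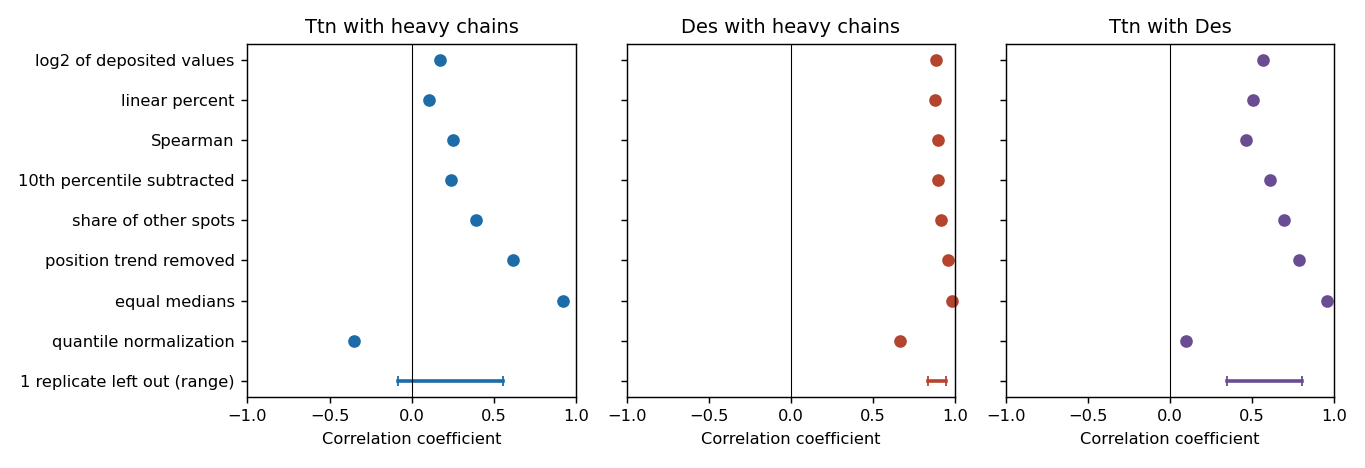
Correlation coefficients of Ttn with the heavy chain sum, Des with the heavy chain sum and Ttn with Des, 1 point for each way of treating the values; the bar gives the range when 1 replicate is left out. Des with the heavy chains stays between 0.666 and 0.980, while Ttn with the heavy chains runs from -0.352 to 0.921.

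Over the 44 genes above the floor, the 5 whose signal was most like titin over the 7 samples were the acyl-CoA dehydrogenase Acadl at r = 0.922, the muscle transcription factor Mef2c at 0.707, the pyruvate dehydrogenase subunit Pdha1 at 0.654, lipoprotein lipase Lpl at 0.588 and Des at 0.567. Those most like desmin were Myh2 at 0.898, Myh1 at 0.897, Myh7 at 0.788, Gapdh at 0.755 and Cox6a2 at 0.697. These values share the array sum as their base and are given as a description.

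Of 69 listed genes of the sarcomere, Z-disc, costamere and intermediate filaments and their regulators, 7 were on the array and 3 of them lay above the floor. These were Itgb1, the integrin subunit of costameres, at 0.363% ± 0.0979, Mef2c at 0.571% ± 0.142 and the serum response factor Srf at 0.187% ± 0.0877 (SD, n = 7 each). Itgb1 was highest in replicate 4 at 0.56%, where desmin was also highest, and lay between 0.27% and 0.42% elsewhere. Its r was 0.613 with Des and 0.361 with Ttn (exact permutation p = 0.144 and 0.435; adjusted p = 0.315 and 0.933). The calpain Capn3, which binds titin, lay near the floor with a mean of 0.101%, as did the calpain inhibitor Cast, the laminin chain Lama2 and the transcription factor Mef2a. None of the 7 passed against Ttn, Des, their ratio or the heavy chain sum, and their median r with the heavy chain sum was -0.670, beside -0.673 over all features.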

How the data were processed

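RNA of muscle belly cryosections was copied into radioactive cDNA with primers specific to each gene, per the labels' protocols, so each array has 1 colour. The authors deposited 1 linear ratio for each of 223 spots and 7 samples. The sources used here do not say how images were read and background treated. No counts or detection calls were used, so the number of arrays limits the precision. Gene names came from the platform annotation: 205 spots had 1 symbol, for 203 genes, and 204 Entrez identifiers matched RefSeq GRCm38.p6 with 0 symbols changed. Spots of one gene were averaged on the log2 scale. Values were used as deposited, times 100, with no pseudocount, since 0 values were at or below 0. Quantile normalization, which sets a value near the top of an array by its rank among few spots, was an alternative. All named genes were tested by exact permutation of Pearson's r in Python 3.11.15 with NumPy 2.4.6, checked on simulated data. Genes were named if they were members, heavy chains, on the fixed scaffold or marker lists, or among the 5 with the highest r to a member. Those that passed against the ratio were named after their values were seen. Members and lists were chosen with earlier results of these data known. Leaving out replicates 3 and 4 together, and adjusting only over genes above the floor, were chosen after the data were seen.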

Additional observations from a re-analysis of the deposited data

Results flagged for a closer look

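Of the levels and ratios examined, 41 in all, 1 had a sample far from the other 6. The calpain inhibitor Cast, near the floor, was at 0.25% in replicate 1 against 0.05% to 0.10% in the others, a gap of 0.569 of the whole range on the log2 scale. About 1 in 20 such groups would be picked out by chance. Replicate 1 also had the highest floor, 0.13%. Neither Ttn, Des, their ratio nor the heavy chain sum had such a sample, with gaps of 0.344, 0.183, 0.170 and 0.130. This check looks at 1 sample at a time. It cannot set apart samples that lie together, as replicates 3 and 4 did in the ratio and the heavy chain sum.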

How the results depend on the processing

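No paired analysis was possible because the series has 1 group. The levels of Des and of the heavy chain sum and the ratio of Ttn to Des moved by less than 1 SD in every alternative run. The Ttn level was 3.06% as a share of the spots other than the heavy chains, Ttn and Des, against 2.46%. With equal medians r passed the threshold for Ttn with heavy chains (0.921), Des with heavy chains (0.980) and Ttn with Des (0.956). The counts of features passing rose from 0 to 35 of 200 for the heavy chain sum, 37 of 203 for Ttn and 38 of 203 for Des. The r of Ttn with heavy chains turned negative with quantile normalization (-0.352) and without replicate 2, in a range of -0.0825 to 0.555 with 1 replicate left out. The other alternatives for these 3 relations kept their sign and did not pass. Against the ratio, the count of 1 feature became 6 of 43 among those above the floor, which tests fewer genes, and 0 with quantile normalization, equal medians, the share of other spots, the 10th percentile subtracted, Spearman's rho and each replicate left out (0 to 0). With 6 samples the smallest exact p is 0.00139, so a single feature cannot pass over about 200, and those counts say nothing about stability. The same holds for the count by Spearman's rho with 7 samples, where the reversed order counts as equally strong. A single feature over 202 cannot pass there, and Cdh5, in the same order as the ratio, did not.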
